A study of Mus musculus with 9 samples.

Results

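The genes described here are known to be induced by interferon and lie outside the 2'-5' oligoadenylate synthetase family. They were chosen with the mammary gland data in view, because their hNAG-1 over WT difference stood out as a group, so their values in that comparison are given as a description and without a test. The list holds 41 names for 40 genes, since Isgf3g is the old name of Irf9. The array measured 39 of the 40, out of 27962 gene names on the array. Gbp3 had no probe under its own name, and the probe listed as Gbp4, which matches Gbp3, is given apart from the 39. These 39 genes were covered by 60 probes.

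RNA was taken from mammary gland number 4 of 4 wild-type (WT) dams and 5 hNAG-1 dams on lactation day 2, and each mouse was hybridized to 1 Agilent 1-color whole mouse genome array. The hNAG-1 dams carry a transgene that expresses human NAG-1, also called GDF15, ubiquitously, and WT dams carry no transgene. The labels give both groups the strain background C57BL/7, whereas the text of the study speaks of C57BL/6 females. The methods name a pair of transgenic lines and state that the work centers on 1 of them, with both combined in some experiments. The line of each array mouse is not given in the sources used here. The array's Gdf15 probe was designed on the mouse gene, and the human transgene was not checked with it.

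Interferons are secreted proteins that bind receptors on nearly every cell type and act through JAK kinases and STAT proteins. Type I interferon leads to a complex, with STAT2 and IRF9 among its parts, that binds the interferon-stimulated response element (ISRE) in promoters. Type II interferon, made mainly by T cells and NK cells, acts on promoters through the gamma-activated site (GAS). The products of the induced genes sense viral RNA, block viral replication, modify proteins with ISG15 or prepare antigens for display. In the lactating gland such transcripts can come from secretory epithelium, from stroma or from immune cells, and in whole-gland RNA a change in the number of cells of a type cannot be told apart from a change in RNA per cell.

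Promoters are shown because interferon is known to act on such genes through short elements near the start. RefSeq promoter windows of build GRCm38.p6, reaching from 250 bases before to 50 bases after an annotated start, were matched for 31 of the 39 genes. Iigp1, Mx1, Mx2, Parp14, Tap2, Usp18, Zbp1 and the gene that the array calls Ifi27 had no window used here. Both strands were searched for the ISRE core GAAANNGAAA and for the palindromic GAS core TTCNNNGAA. The ISRE core was found in 16 of the 31 genes (51.6%) and in 1079 of 27025 genes with a window (3.99%). The GAS core was found in 10 of 31 (32.3%), against 9.55% of all genes. A match is a description of letters and not evidence of a bound site.

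The 150 bases before the start are given 5′ to 3′ on the gene's strand for 4 genes, with ISRE matches on either strand in capitals. Isg15 (chr4:156200819-156200968, minus strand) has 3 overlapping matches, the first starting at position -78 counted from the start. Ifit1 (chr19:34640739-34640888, plus strand) has 2 separate matches on the opposite strand. Apol9a (chr15:77411081-77411230, minus strand) and Bst2 (chr8:71537473-71537622, minus strand) each have 2 overlapping matches.
Isg15: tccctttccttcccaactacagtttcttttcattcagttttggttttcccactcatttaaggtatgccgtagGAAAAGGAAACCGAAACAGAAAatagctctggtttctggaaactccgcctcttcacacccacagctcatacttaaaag
Ifit1: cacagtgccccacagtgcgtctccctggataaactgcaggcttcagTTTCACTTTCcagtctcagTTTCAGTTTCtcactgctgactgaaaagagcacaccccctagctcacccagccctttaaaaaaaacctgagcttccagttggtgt
Apol9a: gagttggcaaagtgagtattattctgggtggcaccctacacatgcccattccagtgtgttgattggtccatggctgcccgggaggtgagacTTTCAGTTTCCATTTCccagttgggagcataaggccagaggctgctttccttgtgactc
Bst2: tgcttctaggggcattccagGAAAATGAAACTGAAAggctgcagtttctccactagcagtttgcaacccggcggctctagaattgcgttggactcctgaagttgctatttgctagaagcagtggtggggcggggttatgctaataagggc
The windows of Apol9a and Apol9b share an identical run of 278 bases.

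Several arrays stood apart from the others in ways that touch these genes. Values are background-subtracted intensities scaled so that every array has the same 75th percentile, which is called scaled intensity below, and a gene is represented by its brightest probe. The labels place WT 1 on slide 1, hNAG-1 1 to 4 on slide 2, and both WT 2 to 4 and hNAG-1 5 on slide 3. The share of features well above background was 60.3% in hNAG-1 2, 59.8% in hNAG-1 4 and 64.6% in hNAG-1 3. It was 69.7% in hNAG-1 1, 73.3% in hNAG-1 5 and between 69.0% and 76.1% in WT. Its part in the differences between mice was not tested. The 9 secretory luminal markers with a probe, among them caseins and Wap, were well above background on all 9 arrays. The summed scaled intensity of 8 B cell markers was 34963 in WT 2 and between 548 and 5442 on the other arrays.
The sum of 8 T cell markers was 28175 in WT 2 and between 828 and 5960 elsewhere. The sum of 5 neutrophil markers was 80666 in hNAG-1 4, where S100a9 alone had 71256, and between 1348 and 5393 elsewhere. Of the neutrophil markers, Elane was not well above background on any array and Mpo was well above it on all 9, both known from neutrophil precursors. The sum of 8 macrophage markers ranged from 79032 to 161311 in WT and from 69394 to 96777 in hNAG-1 mice other than hNAG-1 4, which had 224944. Of that sum Lyzs alone made up 186439. Lyzs, Emr1, Mrc1 and Fcgr1 were highest in hNAG-1 4, whereas Cd68 and Csf1r were highest in WT 2 and Cd14 and Cd163 in WT 4. In hNAG-1 2 the B cell, T cell and neutrophil sums were the lowest of the 9 arrays, at 548, 828 and 1348.

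**Figure D1:**
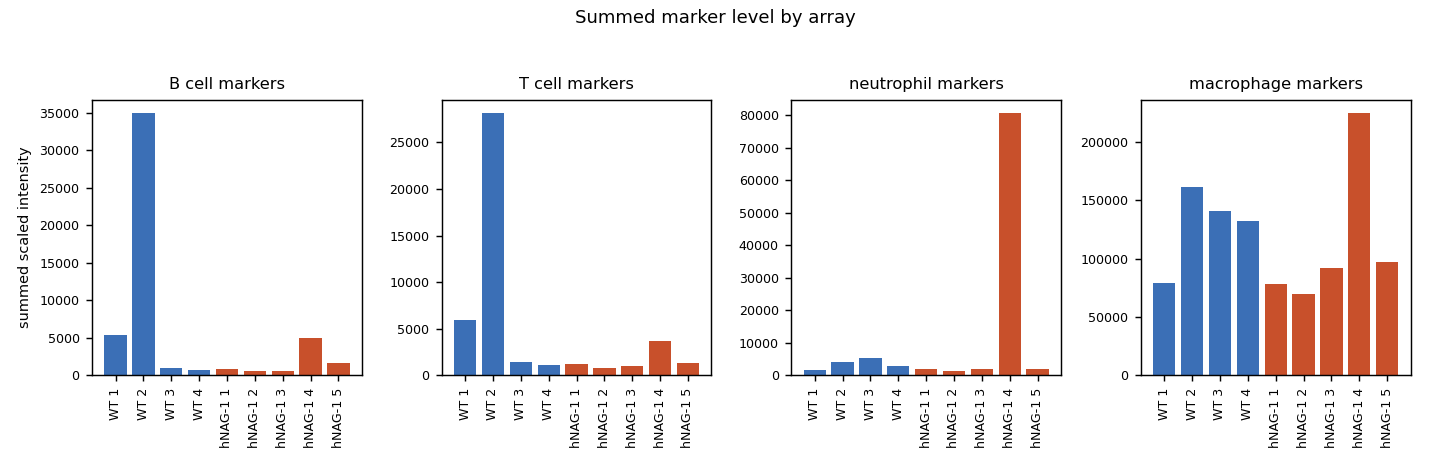
Each bar is the summed scaled intensity of the markers of 1 cell type on 1 array, with WT in blue and hNAG-1 in orange. WT 2 stands apart for B and T cell markers, with 34963 and 28175, and hNAG-1 4 for neutrophil markers, with 80666.

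Of the 39 genes, 35 had a higher mean log2 scaled intensity in hNAG-1 than in WT and 4 a lower one, where 47.9% of all 41174 probes were higher. The median log2 fold change was 0.37 over the 39 genes and -0.02 over all probes. It ranged from -0.20 for Ifitm1 to 1.57 for Apol9a. A difference of at least 1.5-fold was seen in 12 genes, all higher in hNAG-1, beside 2.96% of all probes, and 9 of the 12 reached 2-fold. In 5 genes (Isg15, Ifit1, Apol9a, Apol9b and Mx2) every hNAG-1 mouse lay above every WT mouse, beside 0.658% of all probes, and in 0 genes the reverse held. The 5 became 9 without hNAG-1 5, 3 under median scaling and 0 with unscaled arrays, and the 35 higher genes became 39 and 30 under these scalings, respectively. Because the genes were picked for this difference, nothing is read from these shares. The brightest probe was well above background on every array for 38 of the 39 genes, the exception being Mx1 with 3 of 4 WT arrays, and no probe was saturated.

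**Figure D2:**
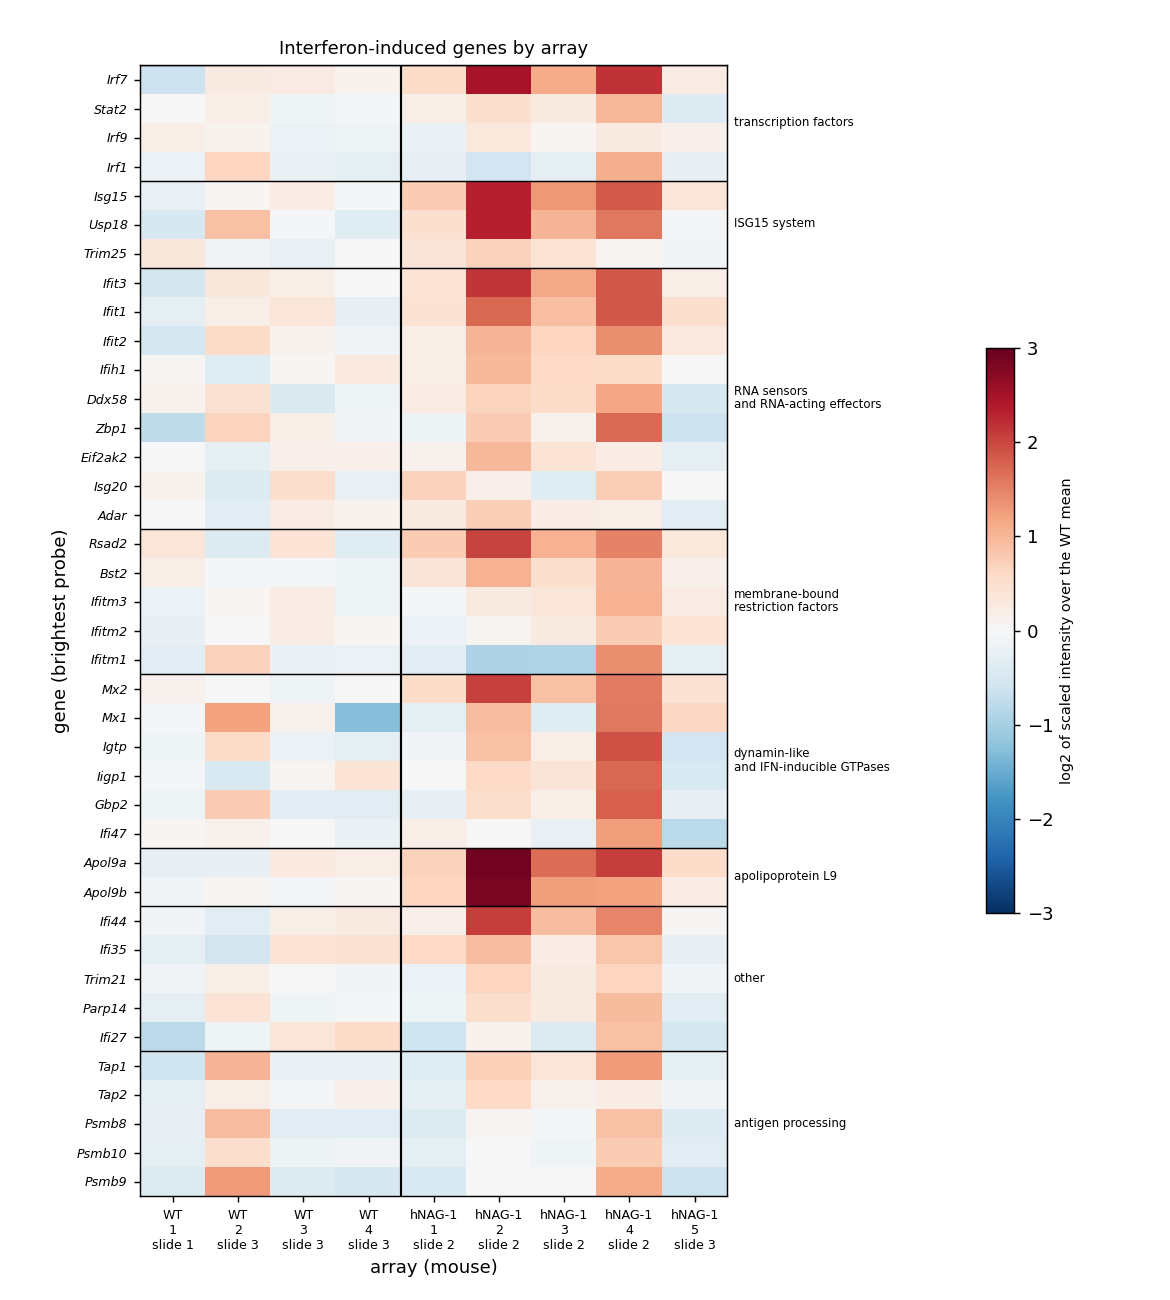
Rows are the 39 genes grouped by role, columns are the 9 mice with their slide, and color gives the log2 of scaled intensity over the WT mean. The darkest cells lie in hNAG-1 2 and hNAG-1 4, with the apolipoprotein L9 genes highest in hNAG-1 2 and the GTPases Igtp, Iigp1 and Gbp2 highest in hNAG-1 4.

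The 3 genes of the ISG15 system were higher in hNAG-1, with Isg15 and Usp18 past 1.5-fold. Isg15 encodes a ubiquitin-like protein that is attached to other proteins, and its scaled intensity was 843, 1031, 1149 and 948 in WT 1 to 4 and 1672, 4993, 2422, 3507 and 1264 in hNAG-1 1 to 5. The genotypes did not overlap, although hNAG-1 5 lay just above the highest WT mouse. The means were 993 ± 130 (SD, n = 4) and 2771 ± 1507 (SD, n = 5), giving a log2 fold change of 1.32 with a standard error (SE) of 0.38. Usp18 encodes the protease that removes ISG15 and damps signaling at the type I receptor, and it measured 388, 1005, 533 and 420 in WT and 765, 2721, 1105, 1640 and 532 in hNAG-1. Its genotypes overlapped, with WT 2 above hNAG-1 1 and hNAG-1 5, and its log2 fold change was 1.08 (SE 0.48). Trim25, a ubiquitin ligase that activates RIG-I, had a log2 fold change of 0.29 (SE 0.20), or 0.19 without hNAG-1 2.

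All 9 genes for RNA sensors and effectors acting on RNA were higher in hNAG-1, and the 3 past 1.5-fold were the Ifit genes. Ifit proteins bind foreign RNA and hold back its translation. Ifit1 had 179, 248, 278 and 182 in WT 1 to 4 and 293, 715, 405, 789 and 304 in hNAG-1 1 to 5, with no overlap and a log2 fold change of 1.08 (SE 0.34). Ifit3 had 689, 1279, 1136 and 1021 in WT and 1331, 4456, 2221, 3641 and 1162 in hNAG-1, with a log2 fold change of 1.15 (SE 0.42). For Ifit3 only hNAG-1 5 fell inside the WT range. Ifit2 was dimmer, at 64.9, 137, 101 and 87.5 in WT and 109, 190, 147, 248 and 115 in hNAG-1, giving a log2 fold change of 0.71 (SE 0.30). WT 2 had the highest WT value of Ifit2 and exceeded hNAG-1 1 and hNAG-1 5. The 3 genes lie in 1 cluster on chromosome 19, where Ifit2 and Ifit3 are next to each other and 3 protein-coding genes separate Ifit3 from Ifit1. The cytosolic RNA sensors Ifih1 (MDA5) and Ddx58 (RIG-I) had log2 fold changes of 0.46 and 0.43. Zbp1, a sensor of nucleic acids in the Z form, had 0.36, the kinase Eif2ak2 (PKR) 0.29, the exonuclease Isg20 0.24 and the RNA-editing enzyme Adar 0.21, and the genotypes overlapped in each of these 6 genes. Most of these values moved with 1 mouse: without hNAG-1 4, Ddx58 was 0.25, Zbp1 0.03 and Isg20 0.12, without hNAG-1 2, Eif2ak2 was 0.12 and Adar 0.09, and without WT 1, Zbp1 was 0.11. Leaving out WT 2 gave 0.10 for Isg20, 0.19 for Eif2ak2, 0.11 for Adar and 0.58 for Zbp1. With slide as a block Ifit1, Ifit2, Ifit3, Ifih1 and Isg20 had 0.39, 0.11, 0.03, 0.01 and 0.04. Ddx58, Zbp1, Eif2ak2 and Adar were then lower in hNAG-1, at -0.44, -0.88, -0.31 and -0.33.

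Among 5 membrane-bound restriction factors, Rsad2 and Bst2 passed 1.5-fold. Rsad2 (viperin) makes a nucleotide that ends viral RNA chains, and it measured 723, 419, 742 and 432 in WT 1 to 4 and 946, 2265, 1159, 1572 and 701 in hNAG-1 1 to 5. All hNAG-1 mice but hNAG-1 5 exceeded every WT mouse, and the log2 fold change was 1.13 (SE 0.35). Bst2 (tetherin) holds budding virus at the cell surface, and it had 28351, 24296, 24331 and 22528 in WT and 32168, 51252, 34338, 50479 and 27712 in hNAG-1. Only WT 1 and hNAG-1 5 crossed, and the log2 fold change was 0.62 (SE 0.22), the smallest of the 12. The Ifitm genes, whose products keep virus from fusing with endosomes, lay within 0.37 (Ifitm3), 0.27 (Ifitm2) and -0.20 (Ifitm1). The Ifitm1 value was 0.03 without WT 2 and -0.61 without hNAG-1 4, and without hNAG-1 4 Ifitm3 had 0.20 and Ifitm2 0.15. They sit side by side on chromosome 7.

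Mx2 was the 1 gene of the 6 GTPases past 1.5-fold. Mx proteins are dynamin-like GTPases that trap viral components, and Mx2 had 339, 309, 285 and 314 in WT 1 to 4 against 452, 1291, 572, 923 and 421 in hNAG-1 1 to 5. There was no overlap, the WT mice lay within 1.19-fold of each other, and the log2 fold change was 1.10 (SE 0.33). Mx1 was dim, at 36.9, 88.4, 42.2 and 15.8 in WT and 31.9, 73.0, 29.8, 115 and 58.7 in hNAG-1, with a log2 fold change of 0.50 (SE 0.54), which was 0.90 without WT 2, 0.07 without WT 4 and 0.23 without hNAG-1 4. It lay just under the 1.5-fold mark, as Bst2 lay just over it. Igtp, Iigp1 and Ifi47, which belong to the immunity-related GTPases, and the guanylate-binding Gbp2 had log2 fold changes of 0.47, 0.45, 0.08 and 0.41. These values rested on hNAG-1 4, without which they were 0.10, 0.13, -0.21 and 0.06. They also moved with WT 2, without which they were 0.66, 0.30, 0.13 and 0.66. Within slide 3, where hNAG-1 5 is set against WT 2 to 4, all 4 were lower (-0.63, -0.46, -0.79 and -0.28).

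The apolipoprotein L9 genes had the largest and the fourth largest log2 fold change of the 39. Apol9a, which the array lists as BC020489, measured 86.9, 88.2, 128 and 119 in WT 1 to 4 and 168, 768, 329, 436 and 152 in hNAG-1 1 to 5. Apol9b, listed as 2310016F22Rik, measured 933, 1011, 962 and 1019 in WT and 1534, 7084, 2357, 2259 and 1148 in hNAG-1. Neither gene overlapped between genotypes, and hNAG-1 2 had by far the highest value of both. The log2 fold changes were 1.57 (SE 0.46) and 1.24 (SE 0.45). The pair are close paralogs on chromosome 15, so the probes may not tell them apart.

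Of 4 transcription factors, Irf7 passed 1.5-fold. IRF7 drives the later wave of type I interferon genes, and Irf7 is itself induced by interferon. Its scaled intensity was 276, 505, 500 and 455 in WT 1 to 4 and 614, 2340, 908, 1902 and 499 in hNAG-1 1 to 5. The hNAG-1 5 value lay among the WT values while the other 4 were higher, and the log2 fold change was 1.31 (SE 0.47). Stat2 and Irf9, whose products act at the ISRE, had 0.31 and 0.12, and without hNAG-1 4 they had 0.13 and 0.08 (Irf9 0.06 without WT 3). Irf1, a factor strongly induced by type II interferon, had -0.05, with no settled direction: it was 0.17 without WT 2 and -0.34 without hNAG-1 4, and its dimmer probe had 0.13.

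The 5 genes of antigen processing had a median log2 fold change of 0.03 over all arrays, a value that turned on WT 2 and hNAG-1 4. The median was 0.34 without WT 2, -0.19 without hNAG-1 4 and 0.15 without both, and with slide as a block it was -0.47 with all 5 genes lower in hNAG-1. Tap1 and Tap2 encode the peptide transporter of the endoplasmic reticulum and had 0.35 and 0.12, of which Tap1 was 0.69 without WT 2, 0.11 without hNAG-1 4 and 0.15 without WT 1, and Tap2 0.02 without WT 1. Psmb8, Psmb9 and Psmb10 encode the subunits of the immunoproteasome and had 0.03, 0.00 and 0.01, values whose sign changed with the scaling (0.24, 0.22 and 0.22 with median scaling, -0.12, -0.15 and -0.14 without scaling). Psmb9 had 2460, 8017, 2518 and 2344 in WT 1 to 4 and 2376, 3249, 3298, 7094 and 2115 in hNAG-1 1 to 5, so that WT 2 and hNAG-1 4 stood out from 7 mice of both genotypes. Psmb9, Tap1, Psmb8 and Tap2 lie next to each other on chromosome 17, and the starts of Tap1 and Psmb9 are 226 bases apart on opposite strands.

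Ifi44, a cytosolic protein linked to antiviral responses, was the last gene past 1.5-fold. It had 517, 432, 621 and 657 in WT 1 to 4 and 611, 2316, 1050, 1522 and 563 in hNAG-1 1 to 5. The hNAG-1 1 and hNAG-1 5 values lay inside the WT range, and the log2 fold change was 0.93 (SE 0.41). A dimmer Ifi44 probe did not overlap between genotypes and gave 1.14 (SE 0.30). Ifi35 had 0.46, the antibody receptor and ubiquitin ligase Trim21 0.26, and the ADP-ribosyltransferase Parp14 0.26. Without WT 2 Ifi35 was 0.28, and without hNAG-1 4 Trim21 was 0.17 and Parp14 0.08, while Trim21 was 0.16 without hNAG-1 2. Of 3 probes that the array calls Ifi27, 2 carry the RefSeq accession of the related Ifi27l2a, among them the brightest with -0.11 (0.07 without WT 4, -0.38 without WT 1), and the accession of the other probe was not matched. The probe for the gene now called Ifi27, listed as D12Ertd647e, had 0.35. Of 16 genes with several probes, 14 had all probes in 1 direction and 2 (Irf1 and Parp14) had both, and the log2 fold changes of a gene's probes lay at most 0.54 apart (Ddx58).

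**Figure D3:**
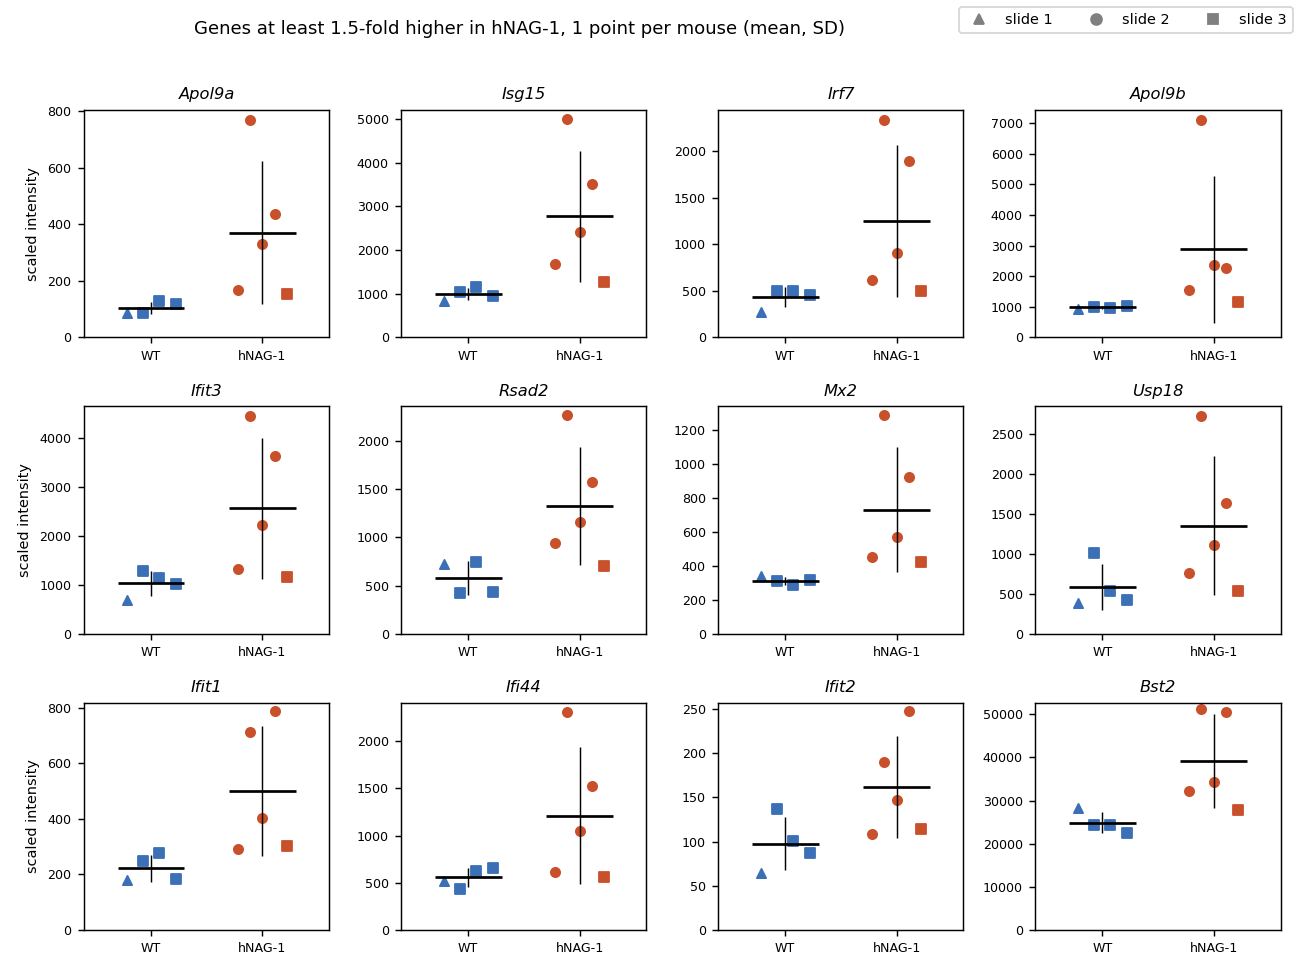
Each panel shows 1 of the 12 genes at least 1.5-fold higher in hNAG-1, with the scaled intensity of each mouse as a point, its slide as the shape, the mean as a line and the SD as a bar. In all 12 panels the hNAG-1 mice spread more widely than the WT mice, and the hNAG-1 mouse of slide 3 lies at or near the WT values.

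In each of the 12 genes, the highest and lowest mouse of slide 2 were further apart than the genotype means. Over the 12 genes, the median log2 of scaled intensity over the WT mean was 0.52 in hNAG-1 1, 2.11 in hNAG-1 2, 1.04 in hNAG-1 3, 1.58 in hNAG-1 4 and 0.26 in hNAG-1 5. Every one of hNAG-1 2, 3 and 4 exceeded all WT mice in all 12 genes, whereas hNAG-1 1 did so in 9 and hNAG-1 5 in 5. Among these mice of slide 2, all hNAG-1, the values of Isg15 spanned 2.99-fold, Irf7 3.81-fold and Apol9b 4.62-fold. Over all 39 genes, hNAG-1 1 to 5 exceeded every WT mouse in 14, 27, 21, 35 and 7 genes, where the shares over all probes were 17.2%, 25.9%, 11.5%, 22.5% and 37.5%.

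The highest hNAG-1 mouse was hNAG-1 2 for 18 genes and hNAG-1 4 for the other 21. These arrays also had the smallest shares of features well above background, 60.3% and 59.8%, and the part of this in the values was not tested. The 18 genes led by hNAG-1 2 had a median log2 fold change of 0.77 and held 10 of the 12 genes past 1.5-fold, all but Ifit1 and Ifit2. The 21 led by hNAG-1 4 had a median of 0.31 and took in Irf1, Ifitm1, all of the GTPases but Mx2 and 4 of 5 genes of antigen processing. In 15 of these 21 genes WT 2 was the highest WT mouse, against 5 of the 18 led by hNAG-1 2. The median log2 ratio of WT 2 to the other WT mice was 0.70 in the 21 genes and -0.03 in the 18. Over all probes this ratio had a median of -0.16. WT 2 had the highest B and T cell marker sums and hNAG-1 4 the highest neutrophil and macrophage sums, and the part of these cells in the values was not tested. The macrophage sum was mostly Lyzs, and several of the other macrophage markers were highest in a WT mouse.

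**Figure D4:**
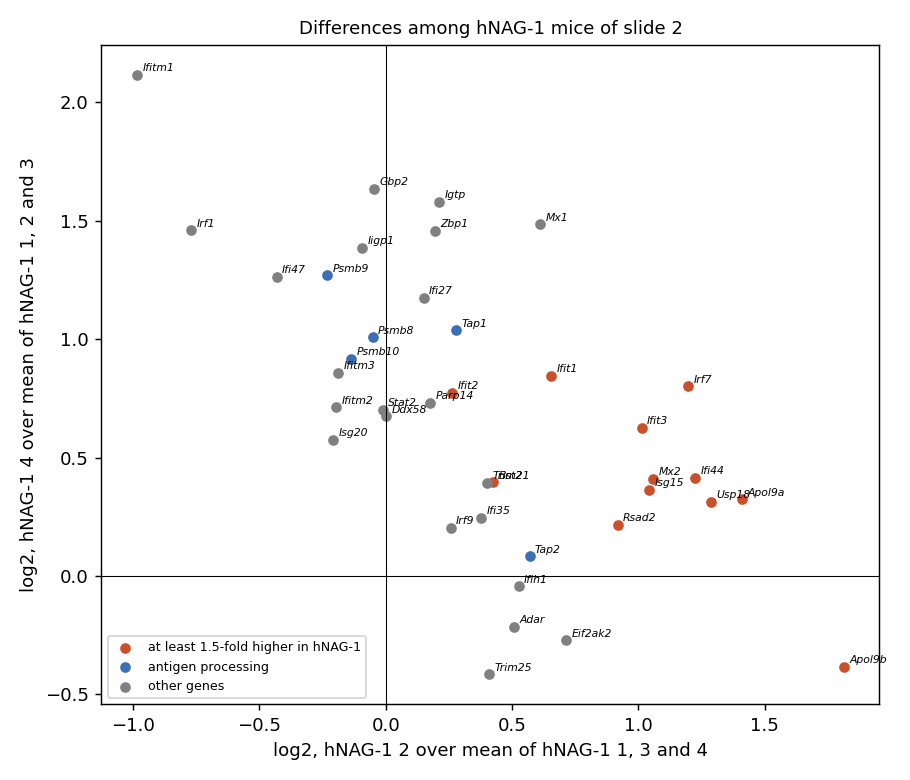
Each point is 1 of the 39 genes, the horizontal axis gives the log2 of hNAG-1 2 over the mean of the other mice of slide 2 and the vertical axis the same for hNAG-1 4, so the axes share arrays. Genes past 1.5-fold lie to the right, up to 1.81 for Apol9b, and Ifitm1 lies at the top left, at -0.99 and 2.12.

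The median log2 fold change of the 39 genes was 0.20 without hNAG-1 4, 0.33 without hNAG-1 2, 0.39 without WT 2, and 0.25 without WT 2 and hNAG-1 4 together, a choice made after seeing the data. For the 12 genes the median was 1.11 over all arrays, 0.98 without hNAG-1 4, 0.88 without hNAG-1 2 and 1.03 without both WT 2 and hNAG-1 4, and every one of the 12 stayed higher in hNAG-1.

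The values depended on how slide was treated. As a random block, which keeps all 9 arrays in the contrast, it gave a median of 0.35 with 33 of the 39 genes higher, and the 12 genes had a median of 1.05 with 11 at least 1.5-fold higher. With slide as a fixed block, the block meant elsewhere here, the contrast rests on slide 3, that is on hNAG-1 5 against WT 2 to 4. There the median log2 fold change of the 39 genes was -0.17, beside 0.19 over all probes, and 18 of the 39 genes were higher in hNAG-1. The 12 genes had a median of 0.21, from -0.19 for Usp18 to 0.48 for Mx2, and 0 of the 12 reached 1.5-fold. Isg15 went from 1.32 to 0.28, Apol9a from 1.57 to 0.47 and Irf7 from 1.31 to 0.04. Since slide 2 held only hNAG-1 mice, the difference of hNAG-1 1 to 4 from WT and the difference of slide 2 from the other slides cannot be told apart. The spread among the 4 mice of slide 2 is not a difference between slides.

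**Figure D5:**
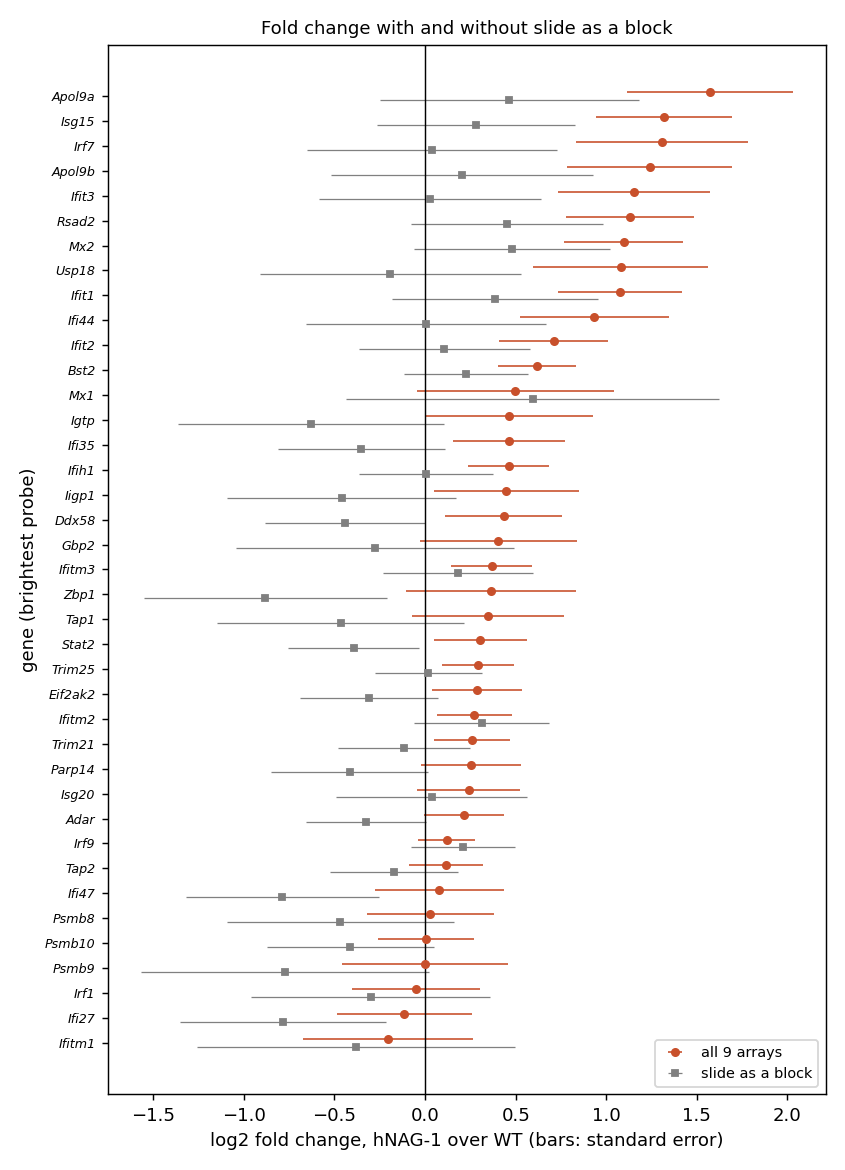
Circles give the log2 fold change of hNAG-1 over WT of the 39 genes from all 9 arrays and squares the same with slide as a block, with standard errors as bars. The values with the block lie at or below 0.59 (Mx1), and those of Zbp1 reach -0.88.

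Other genes of the interferon pathway, which the choice of the 39 did not use, were tested with limma across all probes. The lists of these genes were also chosen with earlier results of these data known. Of 111 genes in 4 lists, 91 had a probe. An unadjusted p under 0.05 was reached by 5 of the 91, 4 higher and 1 lower in hNAG-1, beside 5.6% of all probes (1.15% higher and 4.45% lower). After Benjamini-Hochberg adjustment over all probes 0 of the 91 passed (limma, lowest adjusted p = 0.661), beside 0.00243% of all probes. The 2307 calls among all probes split into 473 higher and 1834 lower, so 20.5% were higher, a share that was 51.5% after normexp correction, 57.5% after quantile normalization, 72.4% with median scaling, 2.86% without scaling and 90.8% with slide as a block. The count of 5 was 1 without hNAG-1 2, 2 without hNAG-1 3 or without WT 1, 8 without hNAG-1 1 and 14 without hNAG-1 5.

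Interferon-induced genes outside the 39 held 3 of the 5. Rtp4, a chaperone of membrane receptors, had 4784, 6501, 6845 and 6949 in WT 1 to 4 and 6989, 20707, 14342, 17514 and 8187 in hNAG-1 1 to 5. The genotypes did not overlap, with hNAG-1 2 again the highest, and the log2 fold change was 1.00 (SE 0.34; two-sided exact permutation p = 0.0476; adjusted p = 0.661 by limma). Lgals3bp, a secreted glycoprotein that binds galectins, had a log2 fold change of 0.88 (SE 0.33; two-sided exact permutation p = 0.0556). Parp12, an ADP-ribosyltransferase, had 0.75 (SE 0.32; two-sided exact permutation p = 0.0794). Both were highest in hNAG-1 2 and overlapped between genotypes. With slide as a block, where hNAG-1 5 is the only hNAG-1 mouse in the contrast, the log2 fold changes were 0.28 for Rtp4, 0.23 for Lgals3bp and -0.05 for Parp12. The chemokine Ccl5 had the most negative value of this list, -0.81 (limma, unadjusted p = 0.197), with 21807 in WT 2. In all, 36 of the 48 genes with a probe had a higher mean in hNAG-1, beside 47.9% of all probes, with a median log2 fold change of 0.21. When slide was a block, 14 of the 48 were higher and the median was -0.20.

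The interferon ligands differed in how well they were measured. Of 14 ligand genes with a probe, 6 were well above background on all 9 arrays, Ifna9 and Ifne1 among them, and 5 were not so on any array, Ifnb1 among them. The ligand Ifna1 had 74.1, 65.7, 75.9 and 84.2 in WT 1 to 4 and 56.6, 32.0, 36.0, 33.6 and 87.5 in hNAG-1 1 to 5. The 4 hNAG-1 mice of slide 2 were below every WT mouse and hNAG-1 5 above, and the log2 fold change was -0.72 (SE 0.30; two-sided exact permutation p = 0.0873). It was 0.22 with slide as a block. Ifna1 was well above background on all 9 arrays but dim. The lowest intensity so called was 31.7 in hNAG-1 4 and 26.6 in hNAG-1 2. Ifna12 had the most negative value of the list at -0.75 and Ifnk, which was not well above background on any array, the most positive.

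Of the 14 genes for receptors, kinases and their inhibitors, 0 passed the unadjusted threshold (limma). Socs3, an inhibitor of cytokine signaling, had the most negative log2 fold change, -1.18 (SE 0.53; two-sided exact permutation p = 0.111). Among 15 genes of nucleic acid sensing, Ticam1, the adaptor of TLR3, passed the unadjusted threshold with 0.43 (SE 0.19; two-sided exact permutation p = 0.0556). The RIG-I-like receptor LGP2, listed as D11Lgp2e, had 0.70 (SE 0.34; two-sided exact permutation p = 0.111), and it was highest in hNAG-1 2, with 1425 against 365 to 573 in WT. With slide as a block Ticam1 had 0.18 and D11Lgp2e had -0.0029. Irf8, a factor of myeloid and B cells, had -0.80 (two-sided exact permutation p = 0.325), with 6359 in WT 2.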

How the data were processed

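RNA from 4 WT and 5 hNAG-1 mammary glands was measured on 1-color arrays of Agilent design 014868. The authors deposited scanner output written by Feature Extraction 9.5.3.1, whose intensity per feature has its background subtracted but is not scaled between arrays. All later steps were done here. Controls were dropped and features repeating a probe averaged. Intensities were divided by the 75th percentile of their array, which ranged from 533 to 1185, set to a common level and put on a log2 scale. This gave 41174 probes. The lowest scaled intensity called well above background ranged from 14.4 to 31.7 across arrays. Precision is limited by the number of arrays.

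Genotypes were compared with limma 3.58.1 in R 4.3.3 (lmFit and eBayes, two-sided, no covariates, 7 residual degrees of freedom), with Benjamini-Hochberg adjustment over all probes. Exact permutation tests of single genes used all 126 ways to draw 4 of the 9 arrays, where the smallest p is 0.00794. A gene was represented by its probe with the highest mean. Each array is a separate dam. The members and all gene lists were chosen with earlier results of these data known. A gene was described mouse by mouse if its genotypes did not overlap or it differed by at least 1.5-fold. From the pathway lists, genes with an unadjusted p under 0.05 and the largest differences each way were named. Psmb9, Mx1 and S100a9 were given by mouse after their values were seen. For 1 list, a gene that this rule would name is not reported here. Gbp4 was kept out of those lists because its probe matches the accession of Gbp3. Limma was also run on simulated data of this comparison over 41174 probes, with 200 changed 2-fold. Of the changed probes, 77.5% had an unadjusted p under 0.05 and 16% an adjusted one. Of the unchanged probes, 5.12% had an unadjusted p under 0.05. The simulated noise was independent between probes and mice and had no slide effect, so these shares need not hold for the real arrays. Marker lists covered secretory luminal, myoepithelial, adipocyte, endothelial, B, T, macrophage, plasmacytoid and conventional dendritic, plasma, neutrophil and NK cells. The alternatives were other background correction, scaling, filters, probe rules, tests and name matching, slide as a block, each mouse left out and a replicate block.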

Additional observations from a re-analysis of the deposited data

Results flagged for a closer look

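In each genotype and gene the gap of the most extreme mouse to its neighbor was divided by the range of the group, and 9 of 78 such groups passed Dixon's 95% critical value, or 11.5%, where chance gives 5% and 8.54% of such groups over all probes passed. Of the 9, 8 come from 2 mice, so the genes are not independent. WT 2 stood apart for Psmb9 (0.942), Psmb8 (0.927), Irf1 (0.905), Ifitm1 (0.872) and Igtp (0.849), high in each. hNAG-1 4 stood apart for Irf1 (0.799), Psmb10 (0.724) and Ifitm1 (0.721), again high in each. WT 1 was low for Irf7 (0.829). WT 2 was also the mouse with the highest B and T cell marker sums and hNAG-1 4 the mouse with the highest neutrophil sum, and their part in these gaps was not tested. No gene of any marker list passed the adjusted threshold (limma), beside 0.00243% of all probes. The unadjusted threshold was passed by 3 (limma), beside 5.6% of all probes. They were 1 of 5 myoepithelial and 1 of 7 adipocyte markers, both higher, and 1 of 4 conventional dendritic cell markers, lower. Nothing is read from this count. Adipocyte and myoepithelial markers had median log2 fold changes of 0.43 and 0.35, secretory luminal 0.10, endothelial 0.15, macrophage -0.11, neutrophil 0.17, NK cell -0.31, plasma cell -0.42, conventional dendritic cell -0.60, plasmacytoid dendritic cell -1.21, T cell -1.39 and B cell -1.51. With slide as a block the last 4 were -0.01, -0.35, -1.37 and -0.27, and adipocyte, myoepithelial, endothelial, macrophage, neutrophil, NK cell and plasma cell markers had 0.14, 0.21, -0.24, -0.50, -0.41, 0.03 and -0.72.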

How the results depend on the processing

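The median log2 fold change of the 39 genes was 0.37 with 35 higher, and leaving out each mouse in turn gave 0.20 to 0.50 and 32 to 38 genes. Slide as a fixed block gave -0.17 with 18 genes higher, as did slide 3 alone, where 9 genes had hNAG-1 5 above all 3 WT mice, beside 46.0% of all probes. Slide as a random block gave 0.35 with 33 genes higher. The count of 5 genes that did not overlap was 3 with median scaling, 0 without scaling and 5 to 9 with a mouse left out (9 without hNAG-1 5), and it has no value under a block. The count of 5 pathway genes with an unadjusted p under 0.05 was 9 with median scaling or the mean over a gene's probes, 8 with dim probes left out or with trend and robust estimation, 3 with a floor of 20, the methods' test or without WT 2 and hNAG-1 4 together (added after seeing the data), 2 without scaling or with slide as a random block, and 1 to 14 with a mouse left out. The count of 2307 probes was 1038 after normexp correction, 3686 with median scaling, 1475 with slide as a random block, 3723 on slide 3 alone, 1245 without WT 2 and hNAG-1 4, and 1163 (without hNAG-1 2) to 5924 (without hNAG-1 5) with a mouse left out, among them 1509 without hNAG-1 3. The cause was not tested.

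The median of all probes was 0.20 with median scaling and -0.16 without scaling, and 36 of the 39 genes lay above it under both, as with the 75th percentile, against 33 after normexp correction or quantile normalization and 10 with slide as a fixed block. Matching probes by accession or synonym gave a median of 0.39. Mice with the same replicate number did not deviate together from their group means (correlations of 0.0795, -0.174, -0.0575 and -0.208). The numbers were not treated as pairs. Differences between arrays and slides also enter these correlations, so they cannot exclude a pairing. With a replicate block, in which hNAG-1 5 has no partner, the median was 0.50 with 36 genes higher, and an unadjusted p under 0.05 was reached by 12 pathway genes and 5447 probes. No depth applies to arrays, and signal over background limits dim genes such as Mx1 and the 5 ligands not above background on any array.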
